A study of Mus musculus with 9 samples.

Results

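Receptors of itch and of non-peptidergic nociceptors were followed in the trigeminal ganglion (TG) after inflammation of the temporomandibular joint (TMJ). The set was chosen by name and holds 10 genes, which are the Mas-related G protein-coupled receptors Mrgprd, Mrgpra3, Mrgprx1, Mrgprb4, Mrgprb5 and Mrgpre, the cytokine receptor chains Il31ra and Osmr, the histamine receptor Hrh1 and the lysophosphatidic acid receptor Lpar3. They are 10 of the 21809 genes in the mRNA table, and each value is the sum of FPKM (fragments per kilobase of transcript, scaled to depth) over the transcripts of the gene. The rule that picks them uses names and no measured value, although earlier results of these data were known when it was set.

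The study injected the TMJ of 8-week-old male wild type C57BL/6 mice on 1 side, under isoflurane, with 10 µl of complete Freund's adjuvant (CFA) at 5 mg/ml or with 10 µl of saline. CFA is an emulsion of oil and killed mycobacteria that causes lasting joint inflammation. The TG was taken 3 days after saline (saline, replicates 1 to 3), 3 days after CFA (CFA3D, replicates 1 to 3) or 6 days after CFA (CFA6D, replicates 4 to 6), so the day 6 libraries had no saline group of their own day. Each library pooled tissue punches of 3 mice, n = 3 libraries per group throughout, and the 2 CFA groups were compared with the same saline libraries.

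The TG holds the cell bodies of the sensory neurons of the face and jaw. Small neurons that make few neuropeptides fall into classes known as NP1, which carries Mrgprd and senses noxious touch and the itch agent beta-alanine, NP2, which carries Mrgpra3 and Mrgprx1 and senses chloroquine and related pruritogens, and NP3, which carries Il31ra and Osmr and responds to the cytokine interleukin 31. These receptors mostly signal through Gq proteins and phospholipase C beta, or in the cytokine case through Janus kinases, and open TRP channels that depolarise the nerve ending.

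Between 30 and 42.2 M read pairs stood behind each library, as estimated from the smallest step between low FPKM values, and a single read pair per kb counted for 0.0237 to 0.0333 FPKM. All 12 pan-neuronal markers were detected in each library, with a summed level of 1740 to 2529 FPKM. Some libraries carried RNA of neighbouring tissues. Saline replicate 3 had a summed level of 10610 FPKM over 5 pituitary markers against 8.87 to 1114 FPKM in the other libraries, and it had the lowest pan-neuronal sum. Saline replicate 2 stood highest for skeletal muscle markers at 136 FPKM and for brown fat markers at 56.0 FPKM. CFA6D replicate 6 held the granulocyte gene S100a8 at 901 FPKM, against 8.46 to 45.0 FPKM in the other libraries. The part of these tissues in the results below was not tested, and results that rest on saline replicate 3 or CFA6D replicate 6 are also given without them. In bulk tissue, fewer cells of a type and less RNA per cell cannot be told apart.

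All 10 receptor genes were detected in each library and passed the filter of a mean of 0.1 FPKM. Mrgprd was the most abundant, with a mean of 12.8 FPKM over 9 libraries, above 73.2% of the 16096 genes tested. Lpar3 (6.78 FPKM) and Osmr (6.67 FPKM) came next, and Lpar3 was the higher of the pair in 6 of 9 libraries. Mrgprb4 (4.66 FPKM), Mrgprb5 (3.61 FPKM), Il31ra (3.26 FPKM), Mrgpre (2.87 FPKM), Mrgprx1 (2.72 FPKM) and Mrgpra3 (2.33 FPKM) followed. Hrh1 was lowest at 0.825 FPKM. FPKM is scaled by transcript length, but the sums of Osmr, Il31ra and Hrh1 add several transcripts, short or noncoding ones among them. Their places in this order depend on that summing. The full-length Osmr-201 alone had a mean of 3.505 FPKM, below Mrgprb4 and Mrgprb5. Hrh1-202, of 476 bases, made up 34.5% of the Hrh1 sum. The ranges over the 9 libraries overlapped between neighbours in this order except at its ends, where each library had Mrgprd above the highest Lpar3 value and Hrh1 below the lowest Mrgpra3 value.

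None of the 10 receptors passed the call used here, which asked for an unadjusted p under 0.05 and a log2 difference of 1 or more in either direction, on day 3, on day 6 or between the days. Of all genes tested 0.342% were called on day 3, 0.584% on day 6 and 0.770% between the days. By the unadjusted p alone, tested with limma, 1 receptor was higher on day 3 (Lpar3, where 3.65% of all genes were), 3 were higher on day 6 (Mrgprd, Lpar3 and Mrgpre, where 8.22% of all genes were), and 0 were lower on either day (0.801% and 2.85% of all genes). Between CFA6D and CFA3D 0 receptors had such a p (3.06% of all genes were higher and 4.34% lower). The Benjamini-Hochberg adjusted p of limma was 0.189 at the smallest, for Mrgprd on day 6, and no gene of the table had an adjusted p under 0.05. The median log2 fold change of the 10 receptors was 0.15 on day 3 and 0.28 on day 6, beside 0.05 and 0.03 over all genes.

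**Figure D1:**
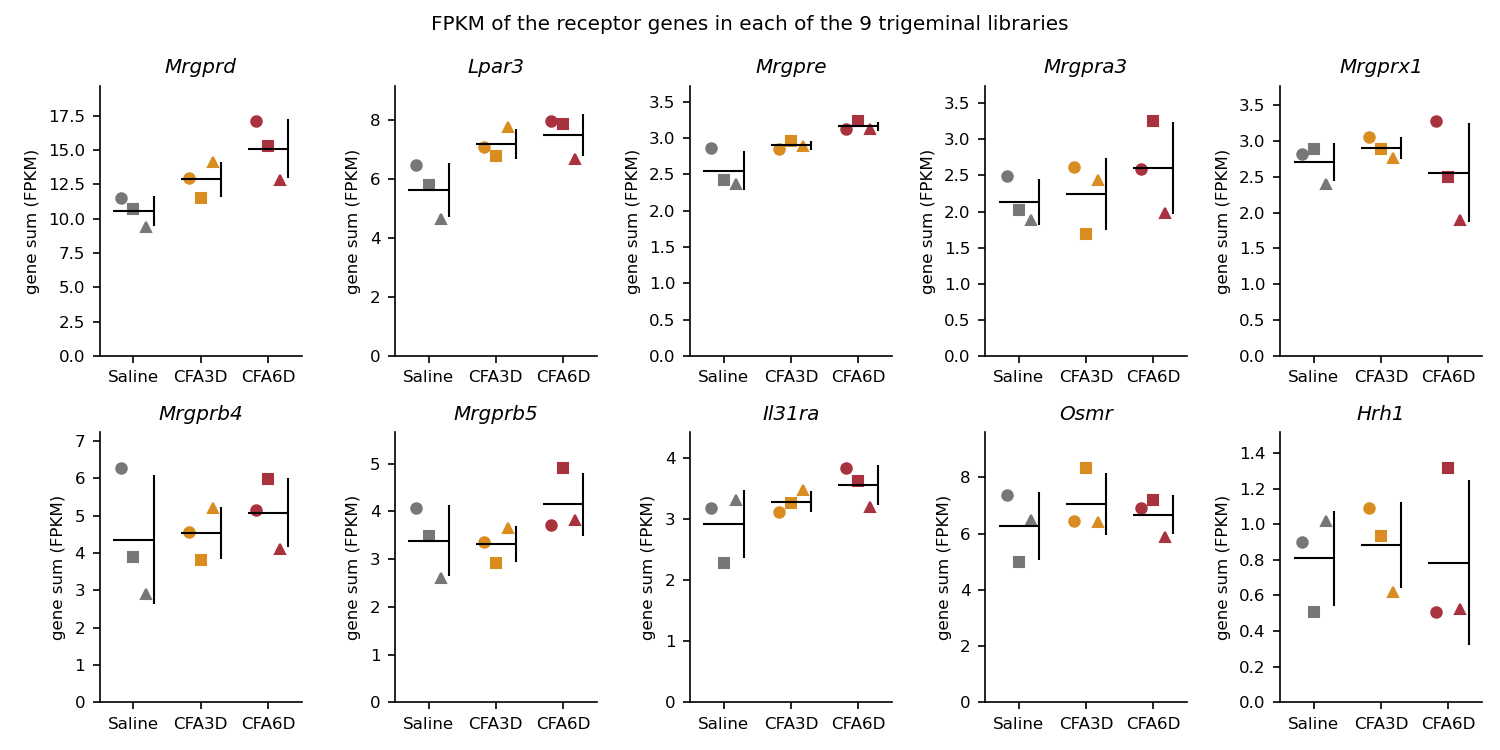
FPKM of each receptor gene (y axis, starting at 0) in the saline, CFA3D and CFA6D libraries (x axis). Each point is 1 library, the horizontal line is the mean of 3 libraries and the vertical line the SD. The CFA libraries of Mrgprd and Lpar3 lie above their saline libraries on both days, by less than 0.01 FPKM for the nearest Mrgprd pair on day 3, while those of Mrgpra3, Mrgprx1, Mrgprb4, Osmr and Hrh1 overlap.

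Mrgprd, the receptor for beta-alanine that marks the NP1 class, lies at chr7:145314835-145324086 on the plus strand (GRCm38) and has 1 transcript of 3144 bases in 2 exons. It was measured at 11.5, 10.7 and 9.38 FPKM in saline replicates 1 to 3, at 12.97, 11.5 and 14.1 FPKM in CFA3D replicates 1 to 3, and at 17.1, 15.3 and 12.8 FPKM in CFA6D replicates 4 to 6. These levels correspond to about 1013 to 2117 read pairs a library, so counting error is small beside the spread between libraries. Saline replicate 3 was the lowest library and CFA6D replicate 4 the highest. Each CFA library lay above each saline library, although CFA3D replicate 2 and saline replicate 1 differed by less than 0.01 FPKM. Group means were 10.6 ± 1.09, 12.9 ± 1.28 and 15.1 ± 2.14 FPKM (SD, n = 3). On the log2(FPKM + 0.1) scale limma gave a difference from saline of 0.28 ± 0.13 (SE) on day 3, with an unadjusted p of 0.0528, and of 0.51 ± 0.13 on day 6, with an unadjusted p of 0.00309. That is a 1.42-fold higher level on day 6. With saline replicate 3 and CFA6D replicate 6 left out, the day 6 difference was 0.54 and its unadjusted p in limma was 0.00277.

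Lpar3, a G protein-coupled receptor for lysophosphatidic acid, lies at chr3:146220963-146286186 on the plus strand and also has 1 transcript in the table, of 2464 bases in 3 exons. Its levels were 6.46, 5.80 and 4.65 FPKM in saline, 7.08, 6.76 and 7.76 FPKM in CFA3D, and 7.96, 7.85 and 6.66 FPKM in CFA6D. The lowest library was again saline replicate 3, and no CFA library overlapped a saline one. The difference from saline was 0.36 ± 0.14 on day 3 and 0.41 ± 0.14 on day 6 (log2, SE), with unadjusted p-values of 0.0258 and 0.0132 in limma. The day 3 value rested on single libraries, since it was 0.23 with an unadjusted p of 0.0951 without saline replicate 3, 0.37 with 0.0512 without CFA3D replicate 1 and 0.30 with 0.0834 without CFA3D replicate 3. On day 6 the unadjusted p stayed at or under 0.0468 whichever library was left out.

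Both receptors therefore counted among the 2 of 10 whose CFA3D libraries lay wholly above saline (7.01% of all genes did), and with Mrgpre they made 3 of 10 on day 6 (10.7% of all genes). Between the CFA groups 2 of 10, Mrgprb5 and Mrgpre, had all CFA6D libraries above all CFA3D libraries (6.62% of all genes did). The ratio of Mrgprd to Lpar3 within a library kept to a narrow band, 1.71 to 2.15 over the 9 libraries. The DNA just before the start of each gene is printed because these were the receptors with higher values on both days. RefSeq promoter windows (GRCm38.p6) were given for 9 of the 10 genes, and none for Mrgpra3. The 250 bases before the start of Mrgprd (chr7:145314585-145314834, plus strand) and of Lpar3 (chr3:146220711-146220960, plus strand) follow, 5′ to 3′, with each CpG in capitals.
Mrgprd: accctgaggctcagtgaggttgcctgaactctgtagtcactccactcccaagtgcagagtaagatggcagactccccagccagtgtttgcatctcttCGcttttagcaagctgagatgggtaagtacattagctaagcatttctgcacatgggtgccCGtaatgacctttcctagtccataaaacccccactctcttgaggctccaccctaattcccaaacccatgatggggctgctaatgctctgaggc
Lpar3: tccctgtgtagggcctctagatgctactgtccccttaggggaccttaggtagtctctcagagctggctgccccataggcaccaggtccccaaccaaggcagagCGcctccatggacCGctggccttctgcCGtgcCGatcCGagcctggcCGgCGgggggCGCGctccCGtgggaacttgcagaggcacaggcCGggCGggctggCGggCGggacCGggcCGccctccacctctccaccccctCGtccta
The windows differ in composition. Mrgprd had 2 CpG and 51.2% G or C, and Lpar3 had 17 CpG and 69.6% G or C, where the median of all 32851 windows was 6 CpG. Other Mas-related receptors with a window were also poor in CpG, with 2 in Mrgprb4, 2 in Mrgprb5, 3 in Mrgprx1 and 4 in Mrgpre. Osmr had 18. RefSeq starts were not always the GENCODE starts used for gene coordinates. The Mrgprb4 and Mrgprb5 windows (chr7:48199179-48199428 and chr7:48168986-48169235) overlap their own GENCODE transcripts. The Osmr window (chr15:6874314-6874563) lies inside the gene, which starts at 6874969 on the minus strand. The core letters bound by RUNX factors, to which Runx1 of the non-peptidergic lineage belongs, were searched on both strands as TGTGGT and TGCGGT, which 14.0% and 5.10% of all windows hold. Neither form occurred in the Mrgprd or Lpar3 window. Of the 9 genes with a window, only Hrh1 had a match, in 2 of its 4 windows. The STAT letters TTCNNNGAA (7.02% of all windows, either strand) occurred in the window of Il31ra and in no other of the 9 genes. That window lies before the start of Il31ra-201, which made up 14.9% of the Il31ra sum. The other Il31ra transcripts are annotated from other starts.

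Mrgpre, a receptor of the same family whose natural ligand is not settled, lies at chr7:143778363-143784500 on the minus strand. It stood at 2.87, 2.42 and 2.37 FPKM in saline, 2.85, 2.96 and 2.89 FPKM in CFA3D, and 3.12, 3.23 and 3.12 FPKM in CFA6D. The CFA libraries were close together, with SDs of 0.0602 and 0.0622 FPKM against 0.274 FPKM in saline. All CFA6D libraries lay above all saline and all CFA3D libraries, and CFA3D overlapped saline. The log2 difference from saline was 0.18 ± 0.12 on day 3 and 0.30 ± 0.12 on day 6 (SE), the latter with an unadjusted p of 0.0314 in limma. This p was over 0.05 when saline replicate 2 (0.0847), saline replicate 3 (0.0867), CFA6D replicate 4 (0.0618), CFA6D replicate 5 (0.0825) or CFA6D replicate 6 (0.0611) was left out.

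Mrgpra3 and Mrgprx1, the receptors of the NP2 class for chloroquine and for peptides such as BAM, lie in the Mas-related gene cluster at chr7:47588950-47601372 and chr7:48020971-48027597, both on the minus strand. Mrgpra3 measured 2.49, 2.02 and 1.89 FPKM in saline, 2.62, 1.68 and 2.43 FPKM in CFA3D, and 2.58, 3.25 and 1.98 FPKM in CFA6D. Mrgprx1 measured 2.82, 2.88 and 2.39 FPKM in saline, 3.06, 2.89 and 2.76 FPKM in CFA3D, and 3.27, 2.49 and 1.90 FPKM in CFA6D. All 3 groups overlapped for both genes. The log2 difference from saline of Mrgpra3 was 0.06 ± 0.23 on day 3 and 0.26 ± 0.23 on day 6, and that of Mrgprx1 was 0.10 ± 0.19 and -0.10 ± 0.19 (SE). Both genes rested on fewer reads, about 78 to 159 read pairs a library for Mrgpra3 and 85 to 152 for Mrgprx1.

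Set within each library, Mrgprd stood apart from Mrgprx1. The ratio of Mrgprd to Mrgprx1 was 4.09, 3.72 and 3.92 in saline, 4.24, 3.998 and 5.11 in CFA3D, and 5.22, 6.15 and 6.76 in CFA6D. All CFA6D ratios exceeded all others, and CFA3D overlapped saline. An exact permutation test could not go below p = 0.1 with 3 libraries in each group, and this was 1 of 5 ratios computed, so the ratio was not tested. The ratio of Mrgprd to Mrgpra3, the other NP2 receptor, overlapped between groups, with 4.63 to 5.33 in saline and 4.71 to 6.62 in CFA6D. A ratio within a library does not depend on how the library was scaled.

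**Figure D2:**
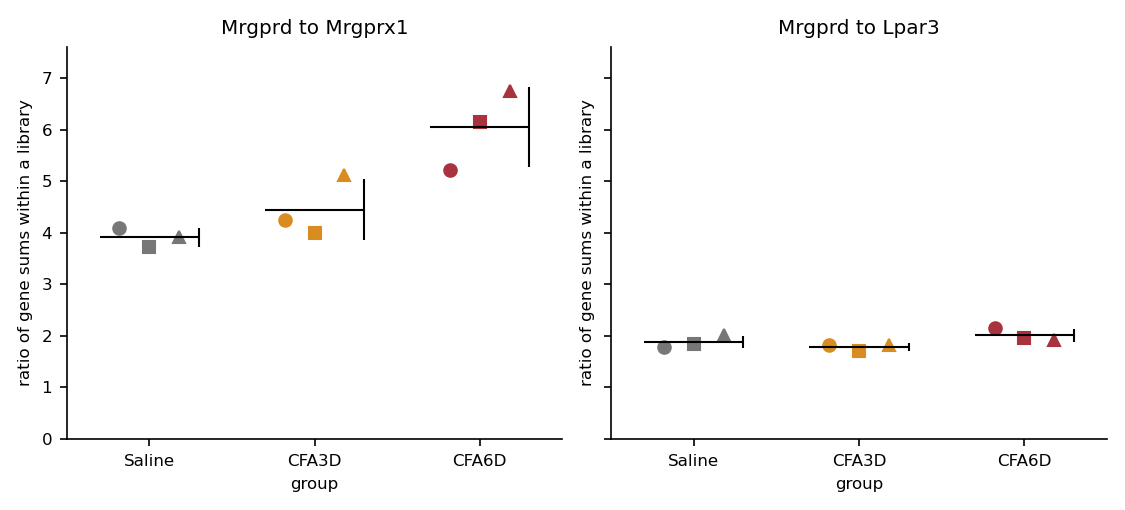
Ratio of the Mrgprd sum to the Mrgprx1 sum (left) and to the Lpar3 sum (right) within each library (y axis, no unit), by group. Points are libraries, horizontal lines are means of 3 and vertical lines the SD. The Mrgprd to Mrgprx1 ratio is 5.22 to 6.76 in CFA6D and 3.72 to 4.09 in saline, while the Mrgprd to Lpar3 ratio stays between 1.71 and 2.15.

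Mrgprb4, which marks unmyelinated fibres that respond to gentle stroking of hairy skin, and its closest relative Mrgprb5 are single-exon genes of the same cluster, at chr7:48198070-48199288 and chr7:48167983-48169019 on the minus strand. Mrgprb4 was at 6.29, 3.90 and 2.91 FPKM in saline, 4.57, 3.82 and 5.21 FPKM in CFA3D, and 5.15, 5.98 and 4.12 FPKM in CFA6D. Mrgprb5 was at 4.07, 3.49 and 2.59 FPKM in saline, 3.36, 2.91 and 3.66 FPKM in CFA3D, and 3.72, 4.91 and 3.81 FPKM in CFA6D. In both genes saline replicate 1 was the highest and saline replicate 3 the lowest saline library, and the groups overlapped with saline. Mrgprb4 was above Mrgprb5 in 9 of 9 libraries, with a ratio of 1.08 to 1.54. The log2 differences on day 6 were 0.27 ± 0.26 for Mrgprb4 and 0.30 ± 0.19 for Mrgprb5 (SE). For Mrgprb4 this was 0.56 with an unadjusted p of 0.0265 in limma when saline replicate 1 was left out, and 0.02 when saline replicate 3 was. For Mrgprb5 it was 0.44 with an unadjusted p of 0.0487 without saline replicate 1.

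The coding sequences of Mrgprb4 and Mrgprb5 are 84.3% identical, and a stretch of 120 coding bases is printed to show how far the 2 can be told apart by reads. It covers coding bases 58 to 177 of Mrgprb4 (chr7:48199002-48199121) and 61 to 180 of Mrgprb5 (chr7:48168806-48168925), both on the minus strand of GRCm38.p6, 5′ to 3′, with the 14 positions that differ in capitals.
Mrgprb4: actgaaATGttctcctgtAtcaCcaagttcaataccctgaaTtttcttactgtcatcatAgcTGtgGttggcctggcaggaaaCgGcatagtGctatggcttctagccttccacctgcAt
Mrgprb5: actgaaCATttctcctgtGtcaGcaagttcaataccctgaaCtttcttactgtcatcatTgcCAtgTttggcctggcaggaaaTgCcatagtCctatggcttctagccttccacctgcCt
No window of 100 bases in the transcripts of the 6 Mas-related receptors occurred in a transcript of another gene of the family. The closest relative of Mrgpra3 was Mrgpra9, with 84.6% identity of the coding bases, and that of Mrgprd was Mrgpre, with 56.4%. How the deposited values treated reads that fit 2 genes is not given in the sources used here, so the values of Mrgpra3, Mrgprb4 and Mrgprb5 carry that uncertainty.

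Il31ra and Osmr form the receptor of interleukin 31, an itch cytokine of T cells, and Osmr also pairs with gp130 (Il6st) to bind oncostatin M. The Il31ra sum was 3.19, 2.29 and 3.30 FPKM in saline, 3.12, 3.26 and 3.47 FPKM in CFA3D, and 3.84, 3.63 and 3.20 FPKM in CFA6D. The Osmr sum was 7.37, 4.98 and 6.47 FPKM in saline, 6.44, 8.35 and 6.42 FPKM in CFA3D, and 6.92, 7.20 and 5.90 FPKM in CFA6D. Saline replicate 2 was the lowest library for both genes, and both CFA groups overlapped saline. The log2 difference from saline was 0.18 ± 0.16 on day 3 and 0.29 ± 0.16 on day 6 for Il31ra, and 0.18 ± 0.17 and 0.10 ± 0.17 for Osmr (SE). The Osmr sum exceeded the Il31ra sum in each library by a ratio of 1.80 to 2.56, with noncoding transcripts counted in both.

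The Il31ra sum is made of 8 transcripts, and their make-up differed between libraries far more than their sum did. Il31ra-203, annotated as a target of nonsense-mediated decay and the transcript with the highest mean, was listed at 0 in saline replicates 1 and 2 and in CFA6D replicates 4 and 5, and at 1.57 FPKM in saline replicate 3, 1.48, 1.67 and 1.54 FPKM in CFA3D, and 1.38 FPKM in CFA6D replicate 6. Il31ra-206, which codes for protein, was at 0.905 and 0.993 FPKM in saline replicate 1 and CFA6D replicate 4, where Il31ra-203 was at 0, and at 0.287 FPKM or less elsewhere. All 3 CFA3D libraries thus held Il31ra-203, while the other 2 groups were split. On day 3 limma called 3 of the 23 receptor transcripts tested, all of Il31ra, against 2.19% of the 66562 transcripts of the table. They were Il31ra-201 (protein coding, log2 difference 1.499 ± 0.61, unadjusted p = 0.0372), Il31ra-204 (nonsense-mediated decay, -1.01 ± 0.43, unadjusted p = 0.0442) and Il31ra-205 (processed transcript, -1.23 ± 0.51, unadjusted p = 0.0399). Their adjusted p in limma was 0.989. The count was 0 without saline replicate 1, CFA3D replicate 1 or CFA3D replicate 3. On day 6 limma called 0 of 23, where 2.57% of all transcripts were called. By the unadjusted p alone 3 of 23 differed, against 6.81% of all transcripts. They were Mrgprd-201, Lpar3-201 and Mrgpre-201, each the only transcript of its gene, and none was of Il31ra.

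Between the days 2 of the 23 transcripts were called, where 2.23% of all were. The short Il31ra-208 (protein coding, 637 bases) was at 0.985, 0.549 and 0.921 FPKM in saline, 0.419, 0.544 and 0.299 FPKM in CFA3D, and 1.22, 1.31 and 0.949 FPKM in CFA6D. Its level was lower in each CFA3D library than in each library of the other groups, and the log2 difference between CFA6D and CFA3D was 1.29 ± 0.28 (unadjusted p = 0.0016 and adjusted p = 0.771 in limma). The other was Il31ra-204, with 1.03 ± 0.43 (unadjusted p = 0.0409 in limma). Transcript levels are split from shared reads by the authors' software, and that split was not tested here.

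**Figure D3:**
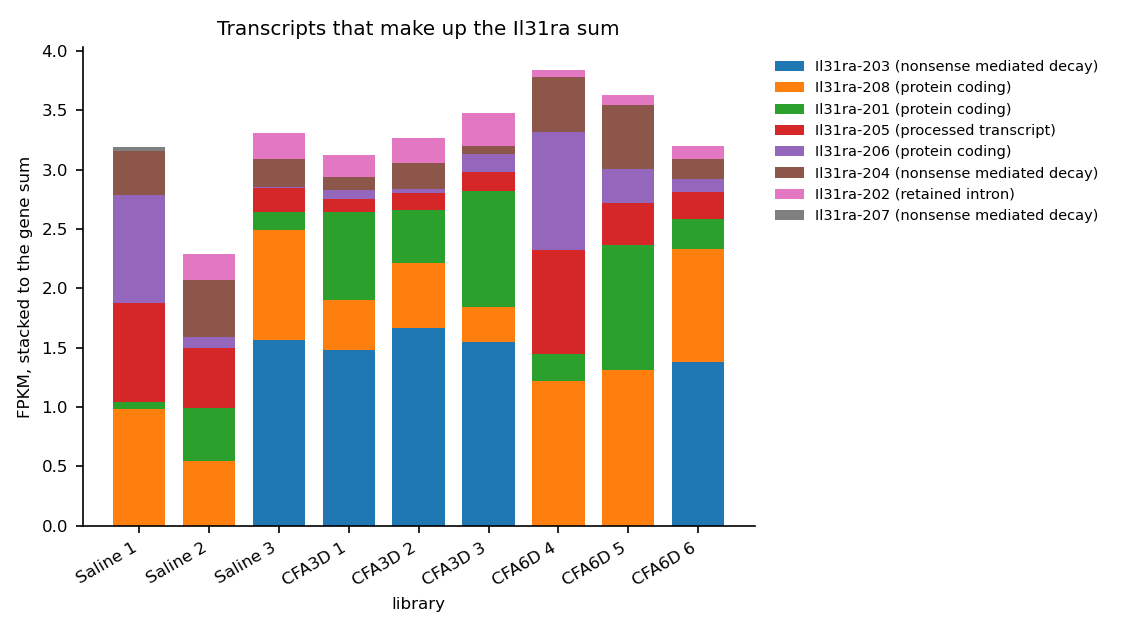
FPKM of the 8 Il31ra transcripts (stacked bars, y axis) in each library (x axis), with the annotated type of each in the key. The bar heights lie between 2.29 and 3.84 FPKM, while Il31ra-203 makes up 1.38 to 1.67 FPKM in 5 libraries and is listed at 0 in the other 4.

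Of the 6 Osmr transcripts, the full-length Osmr-201 made up 52.5% of the sum. It stood at 4.15, 2.59 and 3.16 FPKM in saline, 3.46, 4.52 and 3.57 FPKM in CFA3D, and 3.62, 3.70 and 2.78 FPKM in CFA6D, with log2 differences of 0.23 ± 0.21 and 0.04 ± 0.21 (SE). A further 4 are annotated as retained introns, so part of the Osmr sum lies in RNA that does not code for the receptor.

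Hrh1, the histamine receptor through which histamine itch runs, had the lowest level and the widest relative spread. It was at 0.901, 0.507 and 1.02 FPKM in saline, 1.09, 0.934 and 0.618 FPKM in CFA3D, and 0.508, 1.32 and 0.526 FPKM in CFA6D. The groups overlapped throughout. The log2 differences were 0.13 ± 0.38 on day 3 and -0.11 ± 0.38 on day 6 (SE), and 23 to 124 read pairs a library stood behind the values, so only a large change would have been detectable.

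**Figure D4:**
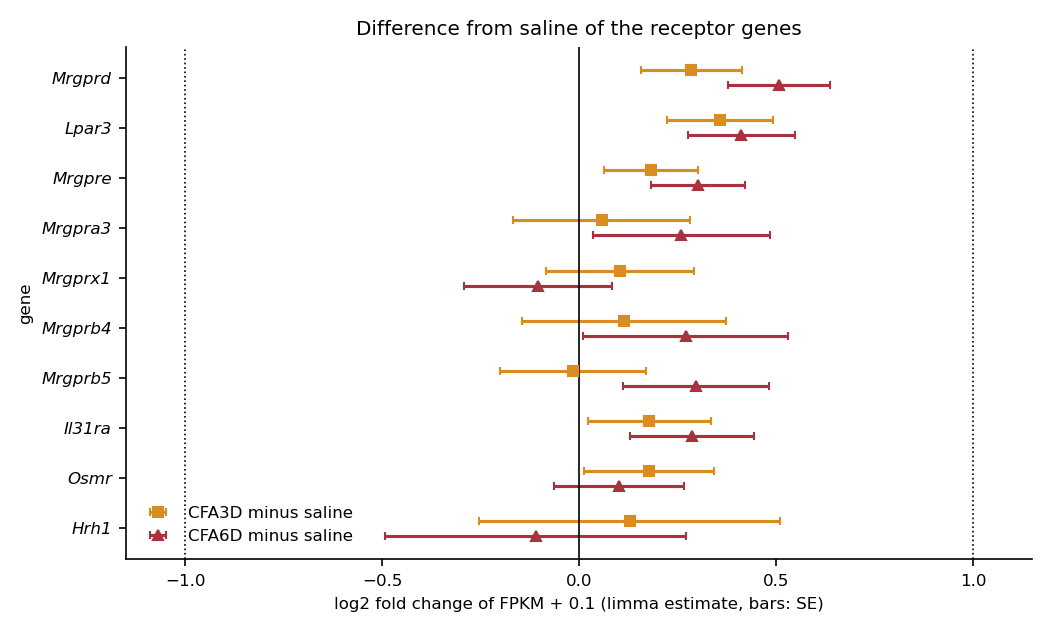
Log2 fold change from saline (x axis, on FPKM + 0.1) of each receptor gene (y axis) on day 3 (squares) and day 6 (triangles), with the SE of limma as bars and dotted lines at 1 and -1. Mrgprd reaches 0.51 and Lpar3 0.41 on day 6, and no gene reaches a dotted line.

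The level of the pan-neuronal markers differed between libraries, and the markers did not all move alike. On day 6 their log2 differences from saline ran from -0.05 (Isl1) to 0.67 (Rbfox3), with 11 of 12 above 0. The mean log2 level of the 12 pan-neuronal markers, relative to the mean of the 9 libraries, was -0.04, -0.14 and -0.26 in saline, 0.01, -0.04 and 0.17 in CFA3D, and 0.22, 0.01 and 0.08 in CFA6D. It was lowest in saline replicate 3, as were Mrgprd and Lpar3. When each library was centred on these markers, which moved the median of all genes from 0.05 to -0.14 on day 3 and from 0.03 to -0.23 on day 6, Mrgprd was 0.26 above saline on day 6 (unadjusted p = 0.0353 in limma) and 0.09 on day 3 (unadjusted p = 0.429). Lpar3 was then 0.16 above saline on both days (unadjusted p = 0.216 and unadjusted p = 0.212), and Mrgpre 0.05 on day 6 (unadjusted p = 0.731). Of the receptors Mrgprd alone kept an unadjusted p under 0.05 under this centring on day 6. The part of the neuronal share in these differences was not tested, and the mean of these markers may not measure that share.

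Other genes of the NP1 class were set beside Mrgprd and Lpar3. Of 15 NP1 markers, 0 were called, 4 were higher on day 3 and 6 on day 6 by the unadjusted p of limma, and 0 were lower. Gfra2, the co-receptor for neurturin, was at 9.35, 11.03 and 9.55 FPKM in saline, 13.97, 14.1 and 13.4 FPKM in CFA3D, and 17.1, 15.2 and 14.5 FPKM in CFA6D. Its groups did not overlap, and its log2 difference from saline was 0.47 on day 3 and 0.64 on day 6 (unadjusted p = 0.000638 and 6.49e-05, adjusted p on day 6 = 0.0830 in limma). Ret, the kinase that Gfra2 works with, differed by 0.32 and 0.47, the sodium channel gene Scn10a by 0.39 and 0.29, Cd55, which shields cells from complement, by -0.01 and 0.32, and the ATP-gated channel gene P2rx3 by 0.12 and 0.06. The remaining markers with such a p were Lpar5 on both days (0.40 and 0.45), and Plxnc1 (0.41) and Scn11a (0.38) on day 6. The median of the list was 0.16 on day 3 and 0.29 on day 6. The 12 pan-neuronal markers had medians of 0.20 and 0.17, with 2 higher on day 3 and 4 on day 6, and 0 lower.

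Of the 6 NP3 markers other than Il31ra and Osmr, 0 were called, and 1 was lower by the unadjusted p on each day. The natriuretic peptide gene Nppb, an itch transmitter of these neurons, was at 4.58, 2.18 and 2.91 FPKM in saline, 3.59, 4.22 and 2.90 FPKM in CFA3D, and 2.37, 1.56 and 2.05 FPKM in CFA6D, a log2 difference of -0.62 on day 6 (unadjusted p = 0.0451 in limma), with overlap between CFA6D and saline. Sst, which codes for somatostatin, was at -0.58 on day 3 (unadjusted p = 0.0459) and 0.16 on day 6. The kinase gene Jak1 and the leukotriene receptor gene Cysltr2, the most abundant of the list, differed by 0.11 and 0.25 on day 3 and by 0.16 and 0.10 on day 6.

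**Figure D5:**
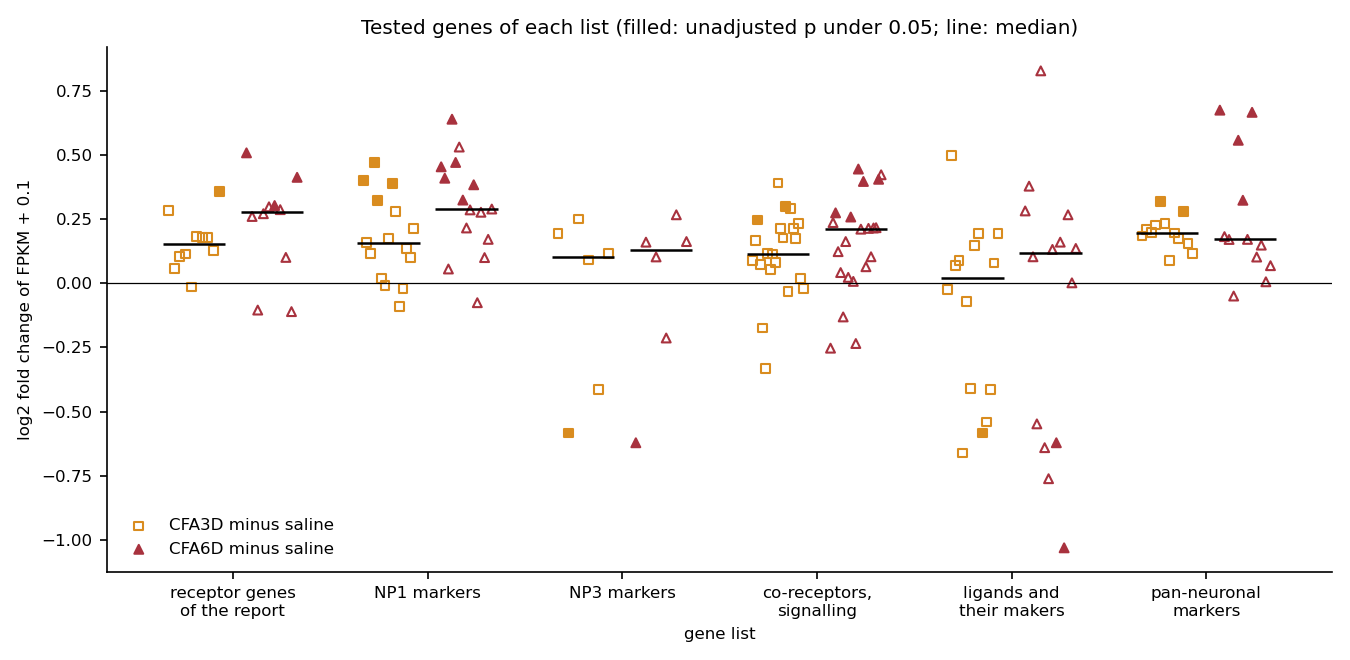
Log2 fold change from saline (y axis, on FPKM + 0.1) of each tested gene in the receptor set and 5 other lists (x axis), on day 3 (squares) and day 6 (triangles). Filled symbols have an unadjusted p under 0.05 in limma, lines are medians, and the medians on day 6 are 0.28 for the receptors, 0.29 for the NP1 markers and 0.17 for the pan-neuronal markers.

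Levels of the ligand genes ranged widely. Il31 was listed at 0 in 8 of 9 libraries, and Osm, the gene of oncostatin M, was at 0.648 FPKM in CFA6D replicate 6 and at 0.224 FPKM or less in the other libraries. Of 14 ligand genes and genes of their makers tested, 1 was called on day 6. This was Grp, which codes for gastrin-releasing peptide and was at 0.0964, 0.111 and 0.363 FPKM in saline, 0.0792, 0.166 and 0.0310 FPKM in CFA3D, and listed at 0, 0.0301 and 0.0732 FPKM in CFA6D. It fell by 1.03 on the log2 scale (unadjusted p = 0.0444 and adjusted p = 0.436 in limma) at levels of a few read pairs, and was not called without saline replicate 3, CFA3D replicate 1 or 2, or CFA6D replicate 4 or 5. Tac1 (substance P), Nmb (neuromedin B), Enpp2 (the enzyme that makes lysophosphatidic acid) and Il33 were the most abundant, with day 6 differences of 0.14, 0.00, -0.64 and -0.55, none with a p under 0.05. Hdc, which makes histamine, was called between the days at 1.49, with CFA6D replicate 6 at 8.16 FPKM and the other 8 libraries at 1.80 FPKM or less.

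Among 21 co-receptors, signalling genes and effectors, 0 were called, 2 were higher on day 3 and 5 on day 6 by the unadjusted p of limma, and 0 were lower. Gnaq, which codes for a Gq protein subunit, was at 28.2, 26.8 and 25.5 FPKM in saline and 31.1, 30.7 and 31.5 FPKM in CFA3D. In CFA6D it was at 43.3, 34.1 and 32.9 FPKM. Its difference from saline was 0.21 on day 3 and 0.44 on day 6 (unadjusted p = 0.00189 in limma). Plcb3, a phospholipase C beta needed for histamine itch, differed by 0.30 and 0.40, and Stat3 by 0.11 and 0.26. The receptor kinase gene Grk2 differed by 0.02 and 0.40, and the interleukin 4 receptor gene Il4ra by 0.25 and 0.27. Il6st, the partner of Osmr, was at -0.25 on day 6 with an unadjusted p of 0.0504, and Lifr was at 0.24. The channel genes Trpv1 and Trpa1 had day 6 differences of 0.21 and 0.10, with overlap between groups.

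The lysophosphatidic acid receptors other than Lpar3 differed in direction. On day 6 Lpar5 was 0.45 above saline (unadjusted p = 0.0146 in limma), and Lpar1 was at -0.22 (unadjusted p = 0.0178), Lpar6 at -0.39 (unadjusted p = 0.0311) and Lpar4 at -0.49 (unadjusted p = 0.0523). Lpar1, the most abundant of them, was at 26.9, 24.8 and 24.6 FPKM in saline, 25.5, 29.1 and 26.7 FPKM in CFA3D, and 21.04, 22.4 and 22.05 FPKM in CFA6D. All CFA6D libraries of Lpar1, Lpar4 and Lpar6 were below all saline libraries, the reverse of Lpar3 and Lpar5. Of 6 fibroblast and meningeal markers, Dcn and Lum were also lower on day 6, at -0.50 and -0.49. Against that, 3 of the 6 were above 0, and the list median was 0.075. The macrophage markers had a median of -0.35 with 0 of 6 passing an unadjusted p of 0.05. The part of these cells in the Lpar1, Lpar4 and Lpar6 values was not tested. Of all 17 histamine, lysophosphatidic acid and other itch receptors tested, 0 were called, and S1pr3 was the other one with such a p on day 3 (0.33).

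In the rest of the Mas-related family 9 of 14 genes reached a mean of 0.1 FPKM, and 0 were called. Mrgprb3 and Mrgprb8 were listed at 0 in all libraries. The most abundant, Mrgpra2b, was at 1.98, 1.71 and 1.94 FPKM in saline, 2.12, 2.49 and 3.38 FPKM in CFA3D, and 1.89, 1.41 and 2.61 FPKM in CFA6D, with a log2 difference of 0.46 on day 3 (unadjusted p = 0.0822 in limma). Mrgpra9 was 0.79 above saline on day 3 (unadjusted p = 0.0366) and Mas1 0.59 on day 6 (unadjusted p = 0.0224). Mrgpra2a and Mrgprf, the next by level, differed by 0.21 and 0.47 on day 3.

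Genes whose level ran most like that of 4 receptors over the 9 libraries were picked by Pearson's r from 16095 other genes, as a description. For Mrgprd they were Eml1 (r = 0.986), Kars (0.979) and Sfxn3 (0.974). For Mrgpra3 they were Rnf112 (0.954), Krt25 (0.946) and Ttc38 (0.942). For Il31ra they were Pitpnb (0.966), Rragd (0.944) and Armcx2 (0.928), and for Osmr Trim6 (0.966), Rhot2 (0.956) and Ttll12 (0.935). The 9 points share groups, libraries and the FPKM scale, and picking the highest of so many values gives high r by itself.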

How the data were processed

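The authors depleted ribosomal RNA, made stranded libraries from TG punches pooled from 3 mice, trimmed reads with Trimmomatic and, by their methods, mapped to GRCm38 and used CLC Genomics Workbench. The submitters' processing notes name Bowtie 0.12.2 and the older build mm8 instead. The authors deposited FPKM per transcript, and the tool that made these values is not given in the sources used here. Noncoding tables were not used here, and 0 columns of the mRNA table were left out.

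Of 102122 transcripts, 101539 matched GENCODE mouse release 21 and were summed by gene. Values were compared as log2(FPKM + 0.1) with limma 3.58.1 in R 4.3.3, with 3 groups, 9 libraries and a trended prior, for genes with a mean of at least 0.1 FPKM. Genes were called at an unadjusted p under 0.05 with a log2 difference of 1 or more in either direction. Benjamini-Hochberg adjustment ran over all genes tested. The fit was tested on simulated data. Depth came from the step of low FPKM times length. Python 3.11.15, pandas 2.3.3 and matplotlib 3.10.9 did the rest. Coordinates are those of GENCODE release 21, and promoter windows are RefSeq's.

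The receptors and the 20 lists were chosen with earlier results of these data known. All 10 receptors are named. Of the other lists, genes that passed a call and up to 4 of the highest mean FPKM are named, as are the 3 genes with the highest r for 4 receptors. Other genes were named after their values were seen. The sources give no more on how the pools of a group differ, so p-values measure the spread between these libraries. Alternatives covered the pseudocount, filter, scaling, groups fitted, fold minimum, adjustment, replicate block, top transcript and each library left out.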

Additional observations from a re-analysis of the deposited data

Results flagged for a closer look

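Hdc, the histidine decarboxylase that makes histamine in mast cells and granulocytes, differed between the 2 CFA days by a log2 fold change of 1.49 (CFA6D minus CFA3D, unadjusted p = 0.044 in limma). It was at 1.80, 1.43 and 1.31 FPKM in saline, 1.26, 1.503 and 0.375 FPKM in CFA3D, and 1.45, 1.68 and 8.16 FPKM in CFA6D. The groups overlap, and the high value is that of CFA6D replicate 6, the library with S100a8 at 901 FPKM and S100a9 at 1024 FPKM. Its part in the Hdc value was not tested.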

How the results depend on the processing

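The number of receptors called was 0 in all 3 comparisons under each alternative except with no fold change minimum, which gave 1 on day 3 and 3 on day 6. Receptors at an unadjusted p under 0.05 numbered 1 on day 3 as reported, 0 with quantile normalization, with centring on pan-neuronal markers, with saline replicate 3 and CFA6D replicate 6 both left out (chosen after seeing the data) and with the replicate block, 2 with only the 2 groups compared, and 0 to 2 with 1 library left out. On day 6 they numbered 3 as reported, 1 with centring and 2 to 5 with 1 library left out, the 5 without saline replicate 1. Between the days they numbered 0 as reported, 1 with both libraries left out and 0 to 1 with 1 library left out. Under the replicate block, possible for saline and CFA3D only, Lpar3 had 0.36 on the log2 scale with an unadjusted p of 0.0568, and Mrgprd 0.28 with 0.0730. Nothing in the labels pairs these libraries, and the deviations of same-numbered ones from their group means correlated at r = 0.087, -0.080 and 0.030. Transcripts of the receptors called on day 3 numbered 3 as reported, 0 with a pseudocount of 1, with a mean of at least 1 FPKM, with no filter and with the adjusted p, 1 with quantile normalization, 5 with no fold minimum, and 0 to 4 with 1 library left out. On day 6 they numbered 0 as reported, 1 with both libraries left out, 3 with no fold minimum and 0 to 1 with 1 left out. Other itch genes called on day 3 numbered 0 as reported, 1 with a pseudocount of 0.01 or with the top transcript of each gene, 6 with no fold minimum and 0 to 1 with 1 library left out. On day 6 they numbered 1 as reported, 2 with a pseudocount of 0.01, 0 with a pseudocount of 1, a mean of at least 1 FPKM, only 2 groups, both libraries left out or the adjusted p, 11 with no fold minimum, 3 with the top transcript and 0 to 1 with 1 library left out.

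Some uncalled differences turned their sign. With centring on pan-neuronal markers the log2 difference on day 3 was -0.14 for Mrgpra3, -0.095 for Mrgprx1, -0.085 for Mrgprb4, -0.016 for Mrgpre, -0.020 for Il31ra, -0.021 for Osmr and -0.070 for Hrh1, and on day 6 -0.15 for Osmr. With both libraries left out it was -0.022 for Mrgpra3 and -0.14 for Mrgprb4 on day 3, 0.0020 for Mrgprx1 and 0.25 for Hrh1 on day 6, and 0.0090 for Osmr between the days. With the top transcript in place of the sum, Il31ra was at -0.057 on day 6 and -2.76 between the days, since that transcript is Il31ra-203. With 1 library left out in turn, day 3 differences ran from -0.062 to 0.24 for Mrgpra3, -0.14 to 0.41 for Mrgprb4, -0.19 to 0.13 for Mrgprb5 and -0.14 to 0.34 for Hrh1, day 6 differences from -0.29 to 0.083 for Mrgprx1, -0.055 to 0.22 for Osmr and -0.51 to 0.10 for Hrh1, and the Osmr difference between the days from -0.14 to 0.047. The cause of these shifts was not tested. Mrgprd, Lpar3 and Mrgpre kept a positive difference on day 6 under all alternatives run. A kept sign does not set them apart. With 1 library left out, the lowest day 6 differences of Mrgpra3, Mrgprb4, Mrgprb5 and Il31ra were also positive, at 0.092, 0.021, 0.12 and 0.12. With 3 pools a group, SEs of 0.12 to 0.38 limit what could be detected. Transcripts at low levels, such as those of Hrh1 and some of Il31ra, rest on few reads. The Il31ra sum as a whole had about 153 to 343 read pairs a library.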

Other observations

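Neurons other than the non-peptidergic classes also had some higher values after CFA. The 8 peptidergic markers had a median log2 difference from saline of 0.28 on day 3 and 0.19 on day 6, and 0 were called. By the unadjusted p of limma Calcb was higher on day 3 (0.34), and Adcyap1 (0.43) and Kit (0.47) were higher on day 6. Calca, the most abundant of them and the gene of the peptide CGRP, was at 0.36 and 0.10. Of 3 cold neuron markers only Trpm8 had such a p, on day 3 (0.34). Of 8 markers of myelinated neurons, 0 had one on day 3. On day 6 the neurofilament genes Nefm (0.60) and Nefh (0.34) were higher, while Pvalb was lower (-0.45).

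Among other cells, 0 of 6 satellite glia markers, 0 of 6 Schwann cell markers, 0 of 7 endothelial and mural markers, 0 of 6 macrophage markers and 0 of 5 tested mast cell markers had an unadjusted p under 0.05 in limma on either day against saline. Their medians on day 6 were -0.20, -0.0047, 0.13, -0.35 and -0.60. Of 6 fibroblast and meningeal markers 2 were lower on day 6 by such a p, Dcn and Lum, the proteoglycan genes given above. The list median was 0.075, with 3 of the 6 above 0. The markers of pituitary, muscle, brown fat and granulocytes differed widely between libraries of a group. Those of pituitary and muscle were high in more than 1 library. The brown fat sum was 56.0 FPKM in saline replicate 2 and at most 9.73 FPKM in any other library. The pituitary sum was 10610 FPKM in saline replicate 3, and 1114 and 404 FPKM in CFA6D replicates 4 and 5. The muscle sum was 136 and 30.5 FPKM in saline replicates 2 and 1, and 60.3 FPKM in CFA6D replicate 6. S100a8 lay above each saline library in each CFA6D library. Adipoq was called on day 3 (-2.81), where saline replicate 2 was at 5.91 FPKM and each CFA3D library was listed at 0. S100a8 was called on day 6 (2.32, unadjusted p = 0.0497 in limma), with CFA6D replicate 6 at 901 FPKM and the other 2 day 6 libraries at 45.0 and 40.0 FPKM, and S100a8, S100a9 and Ltf were called between the days. Of pituitary (5) and skeletal muscle (5) markers 0 were called.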
